A study of Mus musculus with 24 samples.

Results

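Extracellular proteolysis by macrophages rests on the matrix metalloproteinases and on the plasminogen system. The genes described here were 6 metalloproteinases (Mmp8, Mmp9, Mmp12, Mmp13, Mmp14 and Mmp19), the tissue inhibitors Timp1 and Timp2, the urokinase plasminogen activator Plau and its receptor Plaur. They were taken by gene symbol, and all 10 were found among the 52636 genes of the tables. Most metalloproteinases are secreted as inactive zinc enzymes whose prodomain must be removed, and TIMP proteins block the active enzymes. Urokinase, held at the cell surface by its receptor, cuts plasminogen to plasmin, which degrades fibrin and can activate several proMMPs. Macrophages use both systems to clear matrix, to migrate and to release growth factors.

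Bone marrow cells of 6 mice aged 8-12 weeks were grown for 6 days in L-cell conditioned medium to give bone marrow-derived macrophages, and plates of each culture were kept at 20% oxygen (normoxia) or 1% oxygen (hypoxia) for 18 h. The 3 controls (HET-97, HET-102, HET-129) carried Csf1r-iCre with HuR +/fl, and the 3 labelled conditional knockouts (KO-176, KO-281, KO-301) carried Csf1r-iCre with HuR fl/fl. HuR is the RNA-binding protein encoded by Elavl1. All 6 mice carried the Cre, driven by the Csf1r promoter of the macrophage lineage, and EGFP fused to ribosomal protein L10a, so the controls had 1 floxed allele and no mouse was free of Cre. Each lysate was divided into total RNA and RNA bound to tagged ribosomes (translating ribosome affinity purification, TRAP), which gave 24 poly(A) libraries in 8 groups of 3. Levels are in TPM, a unit of relative transcript abundance that is scaled to gene length and to the library, and read depth is unknown. Differences are on the log2(TPM + 1) scale with their standard error (SE), and a gene was called when limma's Benjamini-Hochberg adjusted p over all genes tested was under 0.05.

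The targeted gene did not separate the genotypes in total RNA. Elavl1 lay between 21.2 and 59.8 TPM in the control libraries and between 26.1 and 36.1 TPM in the libraries labelled knockout (difference 0.03 ± 0.22, adjusted p 0.989). In TRAP RNA it lay between 10.5 and 18.1 TPM in controls and between 0.840 and 23.5 TPM in the labelled knockouts (-0.81 ± 0.53, adjusted p 0.999). The labelled knockout TRAP mean was 12.0 TPM at normoxia (0.840 to 17.7) and 12.5 at hypoxia (1.75 to 23.5). In controls it was 15.7 and 14.7 TPM. Whether the values include reads from outside the floxed part is not given in the sources used here, so genotype is given below as labelled. Egln3, a hypoxia-induced oxygen sensor, rose by 2.02 ± 0.19 in total RNA (adjusted p 0.00826). All 8 macrophage markers were detected, with a summed level of 14252 to 26686 TPM in total RNA. The 16 neutrophil markers summed to 24.6 to 204 TPM, with Ly6g at 0 in total RNA and Elane, Mpo and Cxcr2 below 0.4 TPM. Of the 16, other markers were detected: 5 at normoxia and 7 at hypoxia had a mean of at least 1 TPM in total RNA. The 9 stromal markers summed to 1.86 to 61.2 TPM in total RNA and to 0 to 3.29 TPM in TRAP RNA. Mice HET-129 and KO-301 had the highest neutrophil and stromal sums in total RNA. The 8 osteoclast markers summed to 105 to 263 TPM, the 8 dendritic markers to at most 6.68 TPM, the 8 lymphoid markers to at most 0.299 TPM and the 6 mast cell markers to at most 0.438 TPM in total RNA. In bulk RNA, fewer cells of a type and less RNA per cell cannot be told apart.

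AU-rich elements in the 3′ untranslated region are the sequences through which HuR and its competitors are known to act on unstable mRNAs, and they are shown because the study's knockout targets HuR. The annotated region of each gene (GENCODE M21, GRCm38) was searched on the transcript strand for the pentamer AUUUA and for the nonamer UUAUUUA followed by 2 bases that are each A or U. Every nonamer contains a pentamer, and the pentamer counts include it. Of 20095 mouse genes with an annotated 3′ region of at least 50 bases, 63.3% held a pentamer and 15.2% a nonamer, with a median of 1.2 pentamers per kilobase. Mmp9 (chromosome 2, 164940780 to 164955850, plus strand) held 5 pentamers and 1 nonamer in 944 bases, or 5.3 pentamers per kilobase, and 7.02% of genes had a denser region. Mmp12 (chromosome 9, 7344381 to 7369499, plus strand) held 6 pentamers and 2 nonamers, Plau (chromosome 14, 20836660 to 20843385, plus strand) 2 and 1, and Mmp13 (chromosome 9, 7272514 to 7283331, plus strand) 6 and 0. Plaur (chromosome 7, 24462484 to 24475968, plus strand) held 2 pentamers and Mmp19 (chromosome 10, 128790910 to 128800824, plus strand) 1. None was found in Mmp8 (chromosome 9, 7558456 to 7568485, plus strand), Mmp14 (chromosome 14, 54431612 to 54445364, plus strand), Timp1 (chromosome X, 20870166 to 20874735, plus strand) or Timp2 (chromosome 11, 118301069 to 118355740, minus strand). Pentamers per kilobase were 4.95 in Mmp13, 4.03 in Plaur, 2.81 in Mmp12, 2.14 in Plau and 0.58 in Mmp19. Of all genes, 8.21%, 12.9%, 24.2%, 33.4% and 60.6% in turn had a denser region. A match is a stretch of letters and not a measured binding site. The 30-base stretches around each nonamer follow, from GRCm38 and written as RNA, with the nonamer in capitals; for Mmp13, Plaur and Mmp19, which have no nonamer, the first pentamer is in capitals.
Mmp9, chr2:164955294-164955323, nonamer 398 bases after the stop codon: uccagcccuuUUAUUUAUUauguaugaggu
Mmp12, chr9:7360202-7360231, nonamer 1885 bases after the stop codon: ggauuacccuUUAUUUAAUcauuccaggug
Mmp12, chr9:7360338-7360367, nonamer 2021 bases after the stop codon: aggaaauguaUUAUUUAUAuuaaaguguua
Plau, chr14:20843317-20843346, nonamer 877 bases after the stop codon: ucugcuauuuUUAUUUAUAucuauuuuuau
Mmp13, chr9:7282125-7282154, pentamer 19 bases after the stop codon: uuaaaaguuguuAUUUAucucccagagagu
Plaur, chr7:24475677-24475706, pentamer 218 bases after the stop codon: guuauugcucuaAUUUAuuauauaaauaua
Mmp19, chr10:128799492-128799521, pentamer 404 bases after the stop codon: uuuuuuuuuuagAUUUAaggcauguguuac

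**Figure D1:**
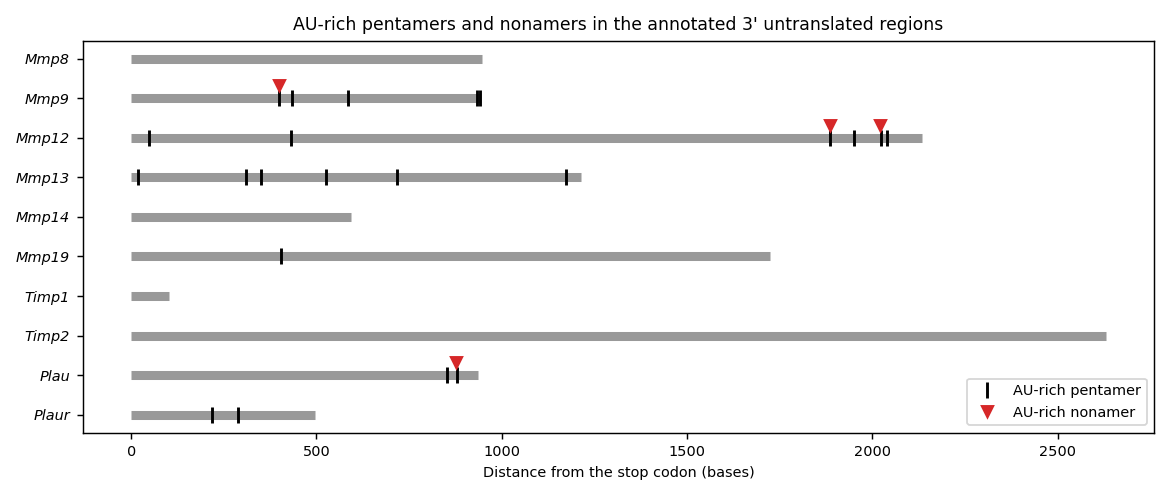
AU-rich pentamers (black ticks) and nonamers (red triangles) along the annotated 3′ untranslated region of each of the 10 genes (grey bars), by distance from the stop codon in bases. Mmp9, Mmp12 and Plau hold nonamers, and Mmp8, Mmp14, Timp1 and Timp2 hold neither element.

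The macrophage elastase gene Mmp12 had the highest level of the 10 genes, with a median of 780 TPM over the 12 total RNA libraries, and Plau followed with 279 TPM. Timp2, whose product inhibits metalloproteinases and also takes part in proMMP2 activation by MT1-MMP, had a median of 131 TPM. Plaur (51.2 TPM), Mmp8 (42.9), Mmp19 (33.5) and Mmp13 (31.3) formed a middle range of median total RNA levels. Mmp14 (20.4), Mmp9 (15.7) and Timp1 (9.20) had the lowest medians. The ranges over libraries overlapped between each gene and the next in this order except from Timp2 to Plaur. The range of Timp2, 96.3 to 164 TPM, lay above those of Plaur, Mmp8, Mmp19, Mmp14, Mmp9 and Timp1. The 4 genes from Mmp12 to Plaur had the same order by median in TRAP RNA. Mmp12 overlaps Mmp1b, Mmp19 overlaps Gm47093 and Tmem198b, and Timp1 lies inside Syn1, all on the opposite strand, while Timp2 overlaps Cep295nl on its own strand. Strand use in the counting is not given in the labels, and these pairs could share reads.

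**Figure D2:**
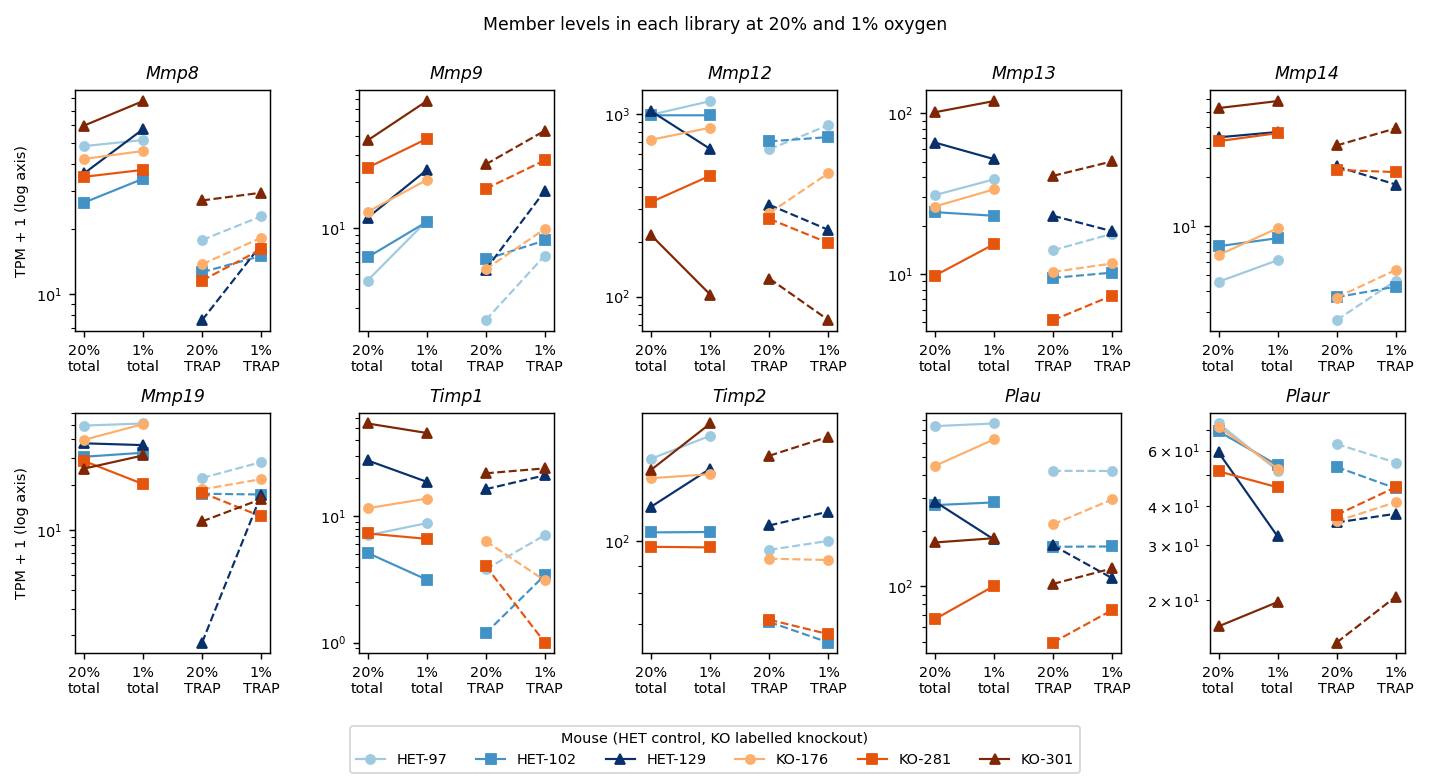
TPM + 1 on a log axis for the 10 genes in every library, joined by mouse from 20% to 1% oxygen, with total RNA as solid and TRAP RNA as dashed lines; blue marks the 3 controls and orange to brown the 3 labelled knockouts. Mmp9 was higher at 1% oxygen in every mouse in both fractions, while Mmp14 lay far apart between mice at both oxygen levels.

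The gelatinase gene Mmp9 was the member that hypoxia raised in total RNA. Its product degrades denatured collagen and basement membrane collagen. In controls Mmp9 total RNA was 3.53 TPM at normoxia and 10.1 at hypoxia in HET-97, 5.44 and 9.97 in HET-102, and 10.7 and 23.0 in HET-129. In the labelled knockouts it was 11.8 and 19.7 TPM in KO-176, 23.9 and 37.4 in KO-281, and 36.5 and 66.9 in KO-301. The hypoxic library was the higher one in 6 of 6 mice, although the ranges of the 6 normoxic and the 6 hypoxic libraries overlapped. The change was 0.88 ± 0.10 (adjusted p 0.00997), with single mice between 0.63 and 1.30, so 1 of 10 genes was called where 3.97% of the 12403 genes tested were called. The call was kept when any 1 mouse was left out (adjusted p 0.0262 to 0.0481). Without HET-129 and KO-301 together the change was 0.85 (adjusted p 0.0897). In TRAP RNA, Mmp9 went from 1.49 to 5.61 TPM in HET-97, from 5.24 to 7.29 in HET-102, from 4.35 to 16.5 in HET-129, from 4.37 to 8.87 in KO-176, from 17.1 to 26.8 in KO-281 and from 25.1 to 42.5 in KO-301. Hypoxia was again higher in 6 of 6 mice, by 0.96 ± 0.19, but the change missed the threshold (adjusted p 0.158). In TRAP RNA limma called 0 of the 10 genes, 2 of them at an unadjusted p under 0.05. Of all 11676 genes tested there, 4 were called, or 0.0343%. The typical SE over all genes was 0.171 in TRAP RNA and 0.11 in total RNA.

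Mmp9 is also a gene of neutrophils and osteoclasts, and some of their markers differed with oxygen too. All 7 neutrophil markers tested had a higher mean in hypoxia in total RNA, with a median of 0.41, and limma called 0 of them (3 had an unadjusted p under 0.05). The summed neutrophil level was 24.6 TPM at normoxia and 26.7 TPM at hypoxia in KO-281, the lowest of the 6 mice, where Mmp9 was the second highest. In HET-129 that sum was 89.8 and 134 TPM, and in KO-301 it was 144 and 204 TPM. Of 5 osteoclast markers tested, Acp5 rose by 0.64 ± 0.11 (adjusted p 0.0261) and Atp6v0d2 fell by 0.45 ± 0.08 (adjusted p 0.0278), while Calcr and Oscar were at 0 in every library. The part of these markers in the Mmp9 change was not tested.

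**Figure D3:**
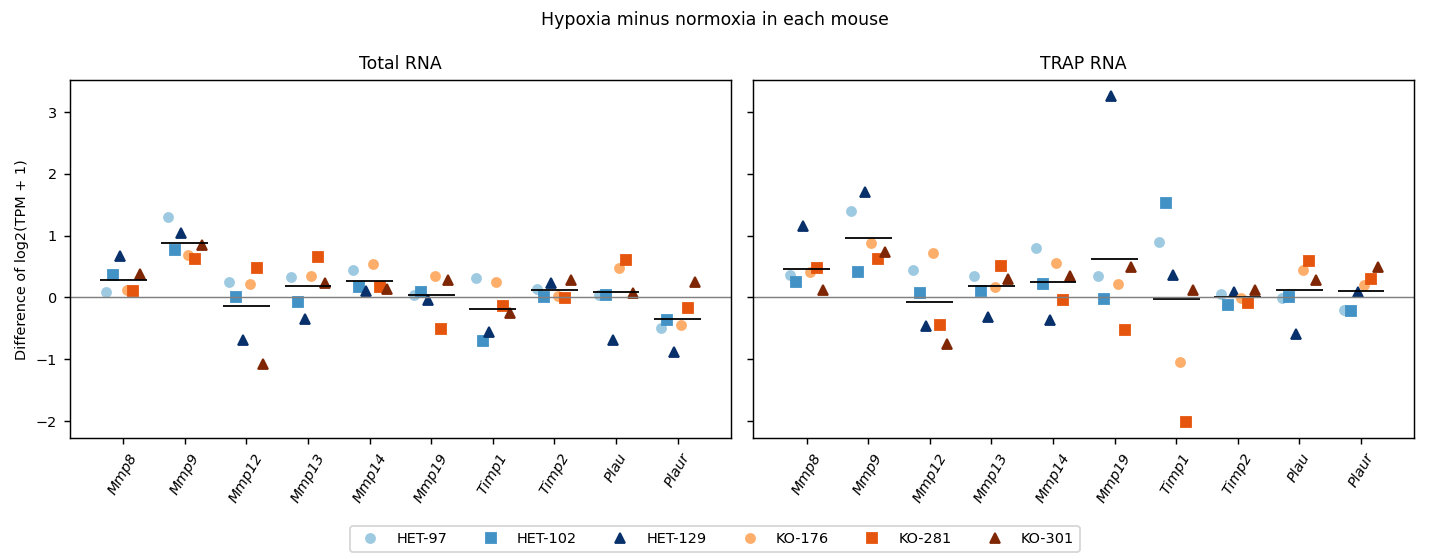
Hypoxia minus normoxia on the log2(TPM + 1) scale for each of the 10 genes, in total RNA (left) and TRAP RNA (right); points are mice and black bars are means over 6 mice. The 6 Mmp9 points lie above 0 in both panels, and the Mmp19 point of HET-129 in TRAP RNA stands at 3.26.

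The collagenase genes differed less with oxygen. Mmp8, the collagenase first known from neutrophils, was 47.2 TPM at normoxia and 50.4 at hypoxia in HET-97, 25.4 and 33.0 in HET-102, 35.0 and 56.7 in HET-129, 41.1 and 44.7 in KO-176, 33.8 and 36.4 in KO-281, and 58.9 and 76.7 in KO-301, all in total RNA. Every mouse had the higher value in hypoxia, but the difference of 0.29 ± 0.09 was not called (adjusted p 0.111). In TRAP RNA Mmp8 differed by 0.46 ± 0.15 (adjusted p 0.235), also higher in 6 of 6 mice. Mmp13, the main interstitial collagenase of rodents, differed by 0.19 ± 0.12 in total RNA (adjusted p 0.408) and by 0.19 ± 0.13 in TRAP RNA (adjusted p 0.555). Its total RNA was highest in KO-301 (101 TPM at normoxia and 118 at hypoxia) and lowest in KO-281 (8.76 and 14.3). It was higher in hypoxia in 4 of 6 mice in total RNA, and lower in HET-102 and HET-129.

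The membrane-bound and remaining secreted metalloproteinases showed no call with hypoxia. Mmp14, which encodes the membrane-anchored MT1-MMP, was higher in hypoxia in 6 of 6 mice in total RNA, by 0.26 ± 0.08 (adjusted p 0.123). In TRAP RNA it was higher in 4 of 6 mice. Mmp12 total RNA was 987 TPM at normoxia and 1173 at hypoxia in HET-97, 980 and 981 in HET-102, 1032 and 641 in HET-129, 721 and 839 in KO-176, 328 and 458 in KO-281, and 216 and 101.5 in KO-301. It was lower by 1.08 in KO-301 and by 0.69 in HET-129 and was higher in the other 4 mice, with a mean of -0.14 ± 0.20 (adjusted p 0.732). Without HET-129 and KO-301 the mean was 0.24. Mmp19, a secreted proteinase with basement membrane substrates, differed by 0.04 ± 0.11 in total RNA (adjusted p 0.875). Its TRAP difference of 0.63 ± 0.43 (adjusted p 0.538) held 1 library far below the others, HET-129 at normoxia with 0.791 TPM against 10.4 to 21.1 TPM in the other 5 mice. Without HET-129 the Mmp19 TRAP difference was 0.11.

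The inhibitor genes did not pass the test in hypoxia in either fraction. Timp2 differed by 0.11 ± 0.06 in total RNA (adjusted p 0.286) and by 0.01 ± 0.08 in TRAP RNA (adjusted p 0.981). Timp1 differed by -0.18 ± 0.15 in total RNA (adjusted p 0.514), lower in 4 of 6 mice. In TRAP RNA the Timp1 mean was -0.02 ± 0.43 (adjusted p 0.987), with mice from -2.01 in KO-281, whose hypoxic TRAP library listed Timp1 at 0, to 1.53 in HET-102.

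Neither urokinase nor its receptor passed the test in hypoxia. Plau total RNA was 737 TPM at normoxia and 762 at hypoxia in HET-97, 274 and 284 in HET-102, 287 and 178 in HET-129, 448 and 625 in KO-176, 65.2 and 99.3 in KO-281, and 172 and 181 in KO-301. The value was higher in hypoxia in 5 of 6 mice, and the mean difference of 0.09 ± 0.15 was not called (adjusted p 0.752). Plaur total RNA was 72.2 and 50.8 TPM in HET-97, 68.1 and 52.9 in HET-102, 58.2 and 30.9 in HET-129, 70.5 and 51.5 in KO-176, 50.5 and 44.8 in KO-281, and 15.5 and 18.7 in KO-301. It was lower in hypoxia in 5 of 6 mice and higher in KO-301, with a mean of -0.35 ± 0.13 that missed the threshold (adjusted p 0.177). In TRAP RNA Plaur was 61.9 and 53.9 TPM in HET-97, 52.2 and 44.4 in HET-102, 34.4 and 36.7 in HET-129, 34.7 and 40.05 in KO-176, 36.4 and 44.9 in KO-281, and 13.6 and 19.5 in KO-301. There it differed by 0.11 ± 0.12 (adjusted p 0.711), higher in 4 of 6 mice. The hypoxia change of Plaur in TRAP RNA exceeded that in total RNA in 6 of 6 mice, by 0.46 ± 0.13 (unadjusted p 0.00839), and this did not pass over all genes (adjusted p 0.816). For Timp2 the change in TRAP RNA was below that in total RNA in 6 of 6 mice, with a difference of -0.11 ± 0.07 (adjusted p 0.837). For this difference between fractions limma called 0 of the 10 genes and 0 of 12918 genes (0%), with 708 genes at an unadjusted p under 0.05.

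Of the other genes of the pathway, 38 were tested in total RNA and 4 called in hypoxia, or 10.5%, where 3.97% of all genes were called. Of 19 further plasminogen system genes, 14 were tested in total RNA, of which 2 rose and 0 fell, with a median of 0.16 against -0.01 over all genes. Anxa2, whose product forms a cell-surface plasminogen receptor with S100a10, rose from 589 ± 141 to 721 ± 137 TPM (SD, n = 6), by 0.30 ± 0.05 (adjusted p 0.0281). Lrp1, the endocytic receptor that clears protease-inhibitor complexes, rose from 62.0 ± 40.9 to 81.5 ± 48.2 TPM (SD, n = 6), by 0.47 ± 0.07 (adjusted p 0.0230). Of 15 matrix substrate genes 9 were tested, of which 1 rose and 1 fell, with a median of -0.07. Tgfbi, a secreted matrix adaptor, rose by 0.54 ± 0.09 (adjusted p 0.0281), and osteopontin (Spp1), an MMP substrate, fell by 0.17 ± 0.04 (adjusted p 0.0478). These 4 calls were less stable than that of Mmp9 when a mouse was left out. Anxa2 and Spp1 were not called with any 1 of the 6 mice omitted (adjusted p up to 0.0911 and 0.148). Lrp1 stayed called only with KO-281 or KO-301 omitted (adjusted p up to 0.0740 with the others omitted), and Tgfbi only with KO-281 omitted (up to 0.0911). Without the filter on low values Anxa2, Tgfbi and Spp1 were not called (adjusted p 0.0576, 0.0592 and 0.173), nor was Spp1 under either rescaling (0.0616 and 0.118). Of 17 sheddases and proMMP activators, 12 were tested and 0 called in total RNA by limma, with a median of 0.17. The most abundant of them, Cd63, Bsg and Adam8, differed by -0.13 ± 0.05, 0.22 ± 0.07 and 0.38 ± 0.08 (adjusted p 0.190, 0.134 and 0.0523). Of 17 other metalloproteinases only Mmp27 reached the level needed for testing, and it differed by 0.30 ± 0.18 (adjusted p 0.377). Of 7 other inhibitors Cst3 and Timp3 were tested and 0 called, with a median of -0.06. Cst3, a cysteine protease inhibitor, differed by 0.18 ± 0.08 (adjusted p 0.202), and Timp3 had the lower mean in hypoxia. In TRAP RNA limma called 0 genes of these 5 lists.

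Differences between the 6 mice, taken over both genotypes, exceeded those with oxygen. For all 10 genes in total RNA the standard deviation of the mouse means was larger in size than the mean hypoxia change. This standard deviation includes any difference between genotypes. For Mmp9 it was 1.08, beside a genotype difference of 1.55 and a hypoxia change of 0.88. In total RNA the highest mouse mean exceeded the lowest by 15.6 times for Timp1, 12.4 for Mmp14, 9.48 for Mmp13, 9.11 for Plau, 7.57 for Mmp9 and 6.81 for Mmp12. The ratio was 3.59 for Plaur, 2.32 for Mmp8, 2.09 for Mmp19 and 1.55 for Timp2. The standard deviation of the 6 mouse means was above 1 on the log2 scale for the first 6 of these genes, a spread that 4.61% of the 12403 genes reached. Mmp14 total RNA was 3.57 and 5.19 TPM at normoxia and hypoxia in HET-97, 6.54 and 7.44 in HET-102, and 5.66 and 8.71 in KO-176. In the remaining mice it was 33.8 and 36.5 TPM (HET-129), 32.0 and 35.9 (KO-281), and 51.6 and 57.0 (KO-301). High and low levels were each found in both genotypes. Mouse KO-301 had the highest mean of Mmp8, Mmp9, Mmp13, Mmp14, Timp1 and Timp2 and the lowest of Mmp12 and Plaur. HET-97 had the highest mean of Mmp12, Mmp19, Plau and Plaur.

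Timp1 was high where stromal marker RNA was high in total RNA. In total RNA Timp1 was 26.7 and 17.8 TPM at normoxia and hypoxia in HET-129 and 53.4 and 44.8 TPM in KO-301, against 2.15 to 12.8 TPM in the other 4 mice. The stromal marker sum was 31.2 and 24.8 TPM in HET-129 and 61.2 and 50.5 TPM in KO-301, against 1.86 to 10.7 TPM in the others. Of the 9 markers, 3 at normoxia and 2 at hypoxia had a mean of at least 1 TPM in total RNA, and 0 in TRAP RNA. In TRAP RNA the stromal sum was at most 3.29 TPM in HET-129 and KO-301, while Timp1 was 15.4 and 20.1 TPM in HET-129 and 20.9 and 23.0 TPM in KO-301. The TRAP stromal sum of KO-281 was 1.98 and 2.17 TPM, inside the range of HET-129 (2.85 and 1.46), with a mean Timp1 of 1.52 TPM. In HET-97, HET-102 and KO-176 the TRAP sum was at most 0.325 TPM and the mean Timp1 1.30 to 4.45 TPM. The part of stromal RNA in the Timp1 levels was not tested.

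**Figure D4:**
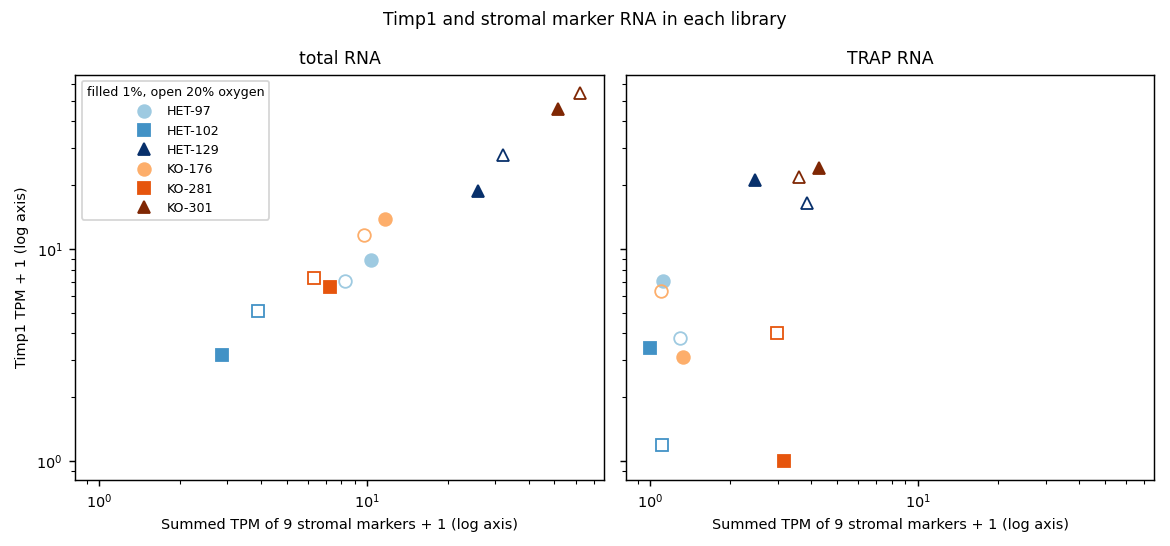
Timp1 (TPM + 1) against the summed TPM + 1 of 9 stromal markers in each library, both on log axes, for total RNA (left) and TRAP RNA (right); open symbols are 20% and filled symbols 1% oxygen. HET-129 and KO-301 are highest on both axes in total RNA, and in TRAP RNA their Timp1 stays at 15.4 to 23.0 TPM with stromal sums of at most 3.29 TPM. KO-281 has TRAP stromal sums of 1.98 and 2.17 TPM with a mean Timp1 of 1.52 TPM.

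The genes whose levels followed a member most closely over the 12 total RNA libraries were found by Pearson's r of log2(TPM + 1) among 8820 genes, as a description, since the 2 libraries of a mouse are not independent. For Timp1 they were Sparc (0.985), Col1a2 (0.984) and Bgn (0.979), which encode matrix proteins; Col1a2 is one of the stromal markers. For Mmp14 they were Copz1, Acod1 and Marco (0.974 to 0.967), the last a scavenger receptor of macrophages. For Mmp9 they were Tmem176b, Vasp and Tmsb10 (0.924 to 0.917), and for Mmp12 Svil, Lin7c and Hipk3 (0.966 to 0.944). Plau was followed by Plekho2, Dock2 and Fzd7 (0.973 to 0.964), and Plaur by Trip10, Sfxn1 and B4galt7 (0.968 to 0.955). Mmp13 had Cndp2, Cd72 and Azi2 (0.971 to 0.963), and Mmp8 had Sdc3, Ecm1 and Aldh3b1 (0.930 to 0.899). Mmp19 had Sertad2, Dhrs9 and Inppl1 (0.940 to 0.932).

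Between the labelled genotypes no member passed the test. Limma called 0 of 12403 genes in total RNA (0%, with 429 at an unadjusted p under 0.05) and 0 of 11676 in TRAP RNA (0%, with 321). In total RNA the ranges of the 3 controls and the 3 labelled knockouts did not overlap for 2 of the 10 genes at normoxia, Mmp9 and Mmp12, and for 0 at hypoxia, where 10.2% and 8.48% of the 12403 genes did not overlap. The macrophage marker sum in total RNA was 22773 to 26686 TPM in controls and 14252 to 21212 TPM in the labelled knockouts. Of its 8 markers, 6 had the lower mean in the labelled knockouts and 2 the higher (median -0.31, 0 called). Most genes were lower there too: 33.7% of all genes tested had the higher mean, and the median was -0.11. The part of these markers in the genotype differences was not tested. Mmp9 was the member with the largest positive difference in both fractions. At normoxia its total RNA was 3.53 to 10.7 TPM in controls and 11.8 to 36.5 TPM in the labelled knockouts, and at hypoxia 9.97 to 23.0 and 19.7 to 66.9 TPM. Over both oxygen levels it was higher in the labelled knockouts by 1.55 ± 0.49 in total RNA (unadjusted p 0.0170, adjusted p 0.901) and by 1.43 ± 0.59 in TRAP RNA (adjusted p 0.999). Without KO-301 the Mmp9 difference was 1.16 in total RNA and 0.96 in TRAP RNA. Mmp12 went the other way, from 980 to 1032 TPM in normoxic controls to 216 to 721 TPM in normoxic labelled knockouts, with 641 to 1173 and 101.5 to 839 TPM at hypoxia. Its difference was -1.42 ± 0.56 in total RNA (unadjusted p 0.0410, adjusted p 0.901), -0.79 without KO-301, and -1.39 ± 0.56 in TRAP RNA (adjusted p 0.999), -0.86 without KO-301. Of the 3 genes with an AU-rich nonamer, Mmp9 had the higher mean in the labelled knockouts and Mmp12 and Plau the lower, and none of these differences was called.

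The hypoxia change itself was not called as different between genotypes for any member. Limma called 0 of 12403 genes in total RNA (0%, with 574 at an unadjusted p under 0.05) and 0 of 11676 in TRAP RNA (0%, with 432). Plau had a more positive hypoxia change in the labelled knockouts, by 0.58 ± 0.24 in total RNA (unadjusted p 0.0455, adjusted p 0.965) and by 0.63 ± 0.21 in TRAP RNA (unadjusted p 0.0191, adjusted p 0.999). The Plau change in total RNA was highest in KO-281 at 0.60 and lowest in HET-129 at -0.68, and without HET-129 the difference between genotypes was 0.34 ± 0.18. For Timp1 in TRAP RNA the change in the labelled knockouts minus that in controls was -1.90 ± 0.58 (unadjusted p 0.0127, adjusted p 0.999), a value that includes the KO-281 hypoxic library listed at 0 and the HET-102 normoxic library at 0.186 TPM. It was -2.44 ± 0.79 with a pseudocount of 0.5 TPM and -3.59 ± 1.34 with 0.1 TPM (adjusted p 0.999 and 0.993).

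In the TRAP fraction all 10 genes had lower TPM than in total RNA, as did most genes. Limma called all 10 lower, where 64.2% of 12918 genes were called lower and 72.3% in either direction, and the median difference over all genes was -0.54. The members' median was -0.80. Mmp8 (-1.43 ± 0.12, adjusted p 1.44e-05), Mmp13 (-1.27 ± 0.10, adjusted p 1.08e-05) and Mmp19 (-1.26 ± 0.24, adjusted p 0.00109) lay furthest below the median of all genes. Timp1 (-1.05 ± 0.19), Mmp12 (-0.84 ± 0.14), Mmp14 (-0.77 ± 0.10), Plau (-0.75 ± 0.09) and Mmp9 (-0.67 ± 0.13) lay closer to it. Timp2 (-0.40 ± 0.10, adjusted p 0.00460) and Plaur (-0.27 ± 0.10, adjusted p 0.0336) lay above it. The place of Mmp19 depended on HET-129: without that mouse Mmp19 was at -0.96, above Timp1 at -1.21. Every member except Timp2 was lower in TRAP RNA in 6 of 6 mice, and Timp2 was lower in 5. Mmp8, Mmp13 and Mmp19 stayed called lower under every scaling tried. With median-ratio rescaling, which moved the median of all genes from -0.54 to -0.07, 4 of the 10 genes were called, and Plaur turned to 0.38 (adjusted p 0.00502, higher in TRAP RNA) and Timp2 to 0.25 (adjusted p 0.0772). With quantile normalization 5 were called, and Mmp9 (0.01) and Plaur (0.21) turned positive without a call. The Plaur call was lost without HET-102, HET-129, KO-176 or KO-281 (adjusted p 0.0521 to 0.105), and in hypoxic lysates alone its difference was -0.04 (adjusted p 0.762). Timp1 also missed the threshold in hypoxic lysates alone (-0.97 ± 0.39, adjusted p 0.0538), where 8 of the 10 genes were called.

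**Figure D5:**
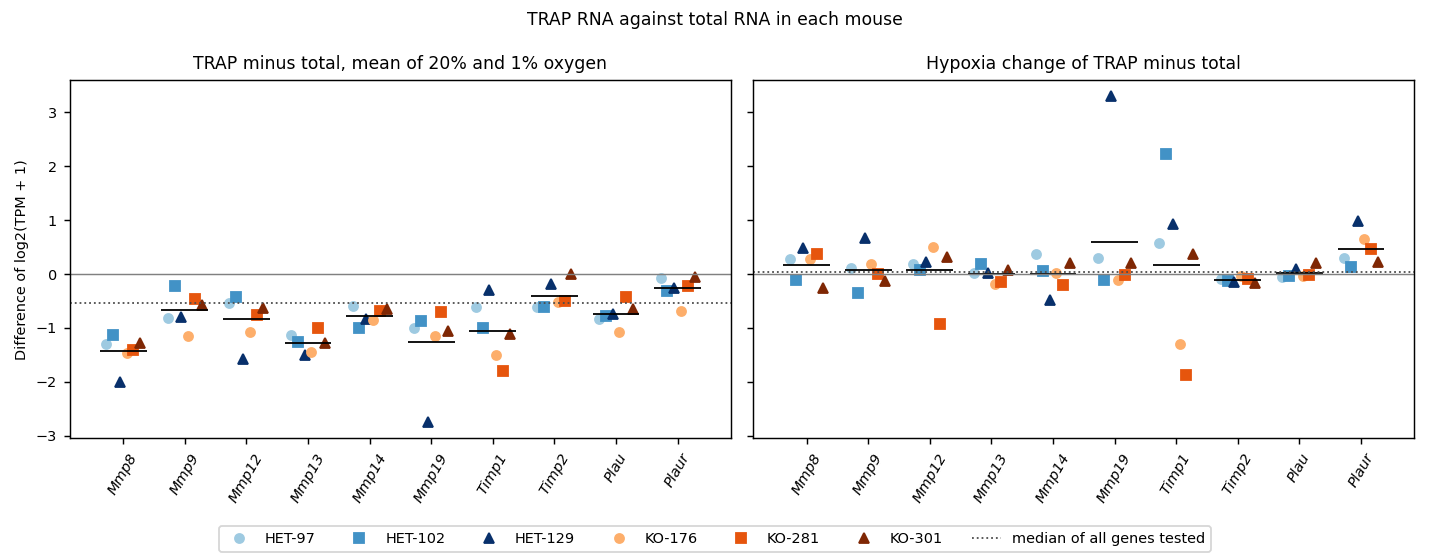
TRAP minus total RNA on the log2(TPM + 1) scale for each of the 10 genes as the mean of both oxygen levels (left), and the hypoxia change of that difference (right); points are mice, black bars are means and the dotted line is the median of all genes tested. On the left the means of Mmp8, Mmp13 and Mmp19 lie furthest below the dotted line at -0.54, with the HET-129 point of Mmp19 at -2.74. On the right all 6 Plaur points lie above 0 and all 6 Timp2 points below 0.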

How the data were processed

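The authors deposited TPM per gene, separately for total and TRAP RNA. Column sums were 999629 to 999969, and TPM keep no depth, so values have no counting interval. The submitters' processing notes name HISAT, DESeq2 and GRCm38, without versions. A further 30 columns of values in the tables were not used. Columns were assigned to samples by title.

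TPM were transformed to log2(TPM + 1), and genes reaching 1 TPM in at least 3 fitted libraries were tested with limma-trend (R 4.3.3, limma 3.58.1; files read with data.table, 1.17.8), two-sided, with Benjamini-Hochberg adjustment over all genes and a threshold of 0.05. The mouse was the unit. Hypoxia and fraction were compared within mice (mouse as a replicate block), and genotype between means of each mouse, 3 against 3. Mouse numbers in the labels mark the animal, and deviations from group means of its 2 oxygen levels correlated (r from 0.565 to 0.795 for total, from 0.397 to 0.717 for TRAP libraries). The procedure was tested on simulated data, in which mice differed less than they did for most members. That test therefore does not show how the genotype comparison behaves for those members. Alternatives were pseudocounts of 0.5 and 0.1 TPM, no filter, quantile and median-ratio scaling, each mouse left out, mice HET-129 and KO-301 left out together, single oxygen levels and no block.

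The members, gene lists and tests were chosen with earlier results of these data known. The text names all members, list genes called in hypoxia, otherwise up to 3 per list by mean TPM, and the 3 genes most like each member among genes with a mean of at least 4 TPM; those of Timp2 are not reported here. Positions and 3′ regions came from GENCODE M21 on GRCm38.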

Additional observations from a re-analysis of the deposited data

Results flagged for a closer look

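For 40 quantities (the 10 genes in the hypoxia change of each fraction, the TRAP minus total difference and its hypoxia change), the 6 mice were examined by Dixon's criterion at its 95% level for 1 mouse that stood far from the rest, and 5 such values were found. For independent groups chance flags about 1 in 20, and these quantities share mice and libraries. The hypoxia change of Mmp8 in TRAP RNA was 1.16 in HET-129 and 0.12 to 0.48 in the other mice. That of Mmp19 in TRAP RNA was 3.26 in HET-129 and -0.52 to 0.49 in the others. The TRAP minus total difference of Mmp19 was -2.74 in HET-129 and -1.15 to -0.71 in the others, and its hypoxia change was 3.30 in HET-129 and -0.12 to 0.30 in the others. These 3 Mmp19 values share the normoxic TRAP library of HET-129. The hypoxia change of the TRAP minus total difference of Mmp12 was -0.92 in KO-281 and 0.08 to 0.51 in the others.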

How the results depend on the processing

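For hypoxia in total RNA, 201 genes were called without the filter, 48 to 224 with a mouse left out and 8 without HET-129 and KO-301, and the number of members called fell to 0 without those 2 mice. Without the replicate block 0 genes and 0 members were called, and Mmp9 had an adjusted p of 0.854. The total RNA change with a mouse left out ran from -0.26 to 0.052 for Mmp12, from -0.025 to 0.15 for Mmp19 and from -0.0066 to 0.25 for Plau; without HET-129 and KO-301 it was 0.24 for Mmp12 and -0.0073 for Mmp19. In TRAP RNA, 0 genes were called with pseudocounts of 0.5 or 0.1 TPM, without the filter, without HET-129 and KO-301 or without the replicate block, 7 with quantile normalization, 1 with median-ratio rescaling and 0 to 3 with a mouse left out. TRAP changes with a mouse left out ran from -0.23 to 0.069 for Mmp12, from -0.33 to 0.38 for Timp1 and from -0.017 to 0.032 for Timp2; without HET-129 and KO-301 they were 0.20 for Mmp12 and -0.042 for Timp2, and Timp2 was -0.029 with median-ratio rescaling. For genotype, 0 to 1 genes were called in each fraction with a mouse left out, and 1 (total RNA) and 2 (TRAP RNA) without HET-129 and KO-301. For the genotype difference in the hypoxia change, 2 genes were called in total RNA with a pseudocount of 0.1 TPM, and 0 to 1 in each fraction with a mouse left out. Of the members, 5 were called in TRAP against total RNA with quantile normalization (Mmp9 0.012, Plaur 0.21), 4 with median-ratio rescaling (Timp2 0.25, Plaur 0.38) and 5 without the replicate block. The cause of these changes was not tested, apart from the fewer mice or the larger number of genes tested that some settings bring by construction. With 3 mice a genotype and TPM without depth, differences as large as those of Mmp9 and Mmp12 between genotypes did not pass.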
